A study of Mus musculus with 6 samples.

Results

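Neutrophil granules are vesicles that store antimicrobial proteins, and their contents are made in sequence as a myeloid precursor matures. Primary (azurophilic) granules are filled first and hold myeloperoxidase and a group of serine proteases. Secondary (specific) granules follow with lactoferrin and lipocalin, and tertiary (gelatinase) granules come last. Transcription of these genes is driven by factors such as PU.1, an ETS family member, and the C/EBP family. It is usually associated with myeloid rather than lymphoid cells.

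The 10 genes described here are Mpo, Elane, Prtn3 and Ctsg (primary granules), Ltf, Ngp and Lcn2 (secondary granules), the lysozyme genes Lyz1 and Lyz2 (lysozyme is stored in both) and Mmp9 (tertiary granules). They were chosen by name, with earlier results of these data known. Every probe set that the platform annotation gives to one of these symbols was taken. That gave 13 probe sets for 10 of the 18193 genes with a symbol. The cells were Ba/F3, an interleukin 3-dependent pro-B line of the mouse, transduced with a retroviral Tet-on construct for NCOR1-LYN, a fusion of a nuclear corepressor with a SRC family kinase. The groups were 3 cultures given doxycycline, labelled as expressing NCOR1-LYN, and 3 uninduced control cultures of the same line, each on 1 Affymetrix array. The sources used here do not say whether the transduced line was 1 clone, how long doxycycline was given or whether the cultures were started separately, so the p-values here cover the spread of these samples, which may be technical. Effects of doxycycline itself cannot be told apart from those of NCOR1-LYN in this design.

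Values are MAS5 signals on a linear scale, scaled by the authors to the same mean on every array, and the median signal of an array ran from 54.8 to 61.9. The arrays numbered 1 lay apart from the others in both groups, and on each array 50.6 to 52.7% of the probe sets had a signal under 64. Arrays of the same number deviated together (r of 0.62, 0.41 and 0.44 across genes for numbers 1, 2 and 3). Numbers 2 and 3 also did so across numbers (NCOR1-LYN 2 with control 3, r = 0.48, and NCOR1-LYN 3 with control 2, 0.39). Deviations were taken from the mean of each group of 3, so the offset of the arrays numbered 1 enters every r. These values thus cannot show that numbers 2 and 3 pair cultures. Changes within same-numbered pairs and a fit with the number as a block are given beside the unblocked values. Of the B lymphoid markers, Cd79b, a chain of the B cell receptor complex, had 412 to 461 with NCOR1-LYN and 403 to 577 in controls. Pax5 and Igll1 were above 64 on some arrays, and the other 8 of the 11 with a probe set (Cd79a, Vpreb1, Rag1, Rag2, Ebf1, Blnk, Dntt and Il7r) stayed below 64 on all 6.

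The promoters of 7 of the genes are shown first: those of the secondary granule genes Ltf, Ngp and Lcn2, of the neighbours Prtn3 and Elane, and of the paralogues Lyz1 and Lyz2. Each is the 250 bases before the annotated transcription start in RefSeq (GRCm38.p6), read 5′ to 3′ on the gene's own strand. Of the 10 genes, 9 matched the RefSeq promoter table. In the secondary granule genes, capitals mark TTGCNNAA, a C/EBP-type motif, on either strand.
Ltf, chr9:111019042-111019291, plus strand: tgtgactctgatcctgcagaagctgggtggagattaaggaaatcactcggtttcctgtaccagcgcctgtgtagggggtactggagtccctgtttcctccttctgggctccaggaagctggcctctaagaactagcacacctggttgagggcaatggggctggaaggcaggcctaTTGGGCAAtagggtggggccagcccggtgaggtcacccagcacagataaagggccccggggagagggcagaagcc
Ngp, chr9:110419558-110419807, plus strand: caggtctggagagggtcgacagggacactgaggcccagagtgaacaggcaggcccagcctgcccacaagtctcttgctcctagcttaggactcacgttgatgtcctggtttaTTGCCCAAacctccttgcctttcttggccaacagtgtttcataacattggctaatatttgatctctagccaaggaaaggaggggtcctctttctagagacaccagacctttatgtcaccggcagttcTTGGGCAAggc
Lcn2, chr2:32387740-32387989, minus strand: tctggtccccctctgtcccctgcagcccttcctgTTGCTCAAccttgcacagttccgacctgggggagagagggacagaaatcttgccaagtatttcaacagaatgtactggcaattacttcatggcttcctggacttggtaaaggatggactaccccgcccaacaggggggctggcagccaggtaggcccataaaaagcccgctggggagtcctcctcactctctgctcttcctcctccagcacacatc

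In the primary granule and lysozyme genes, capitals mark AGGAAGT, an ETS-type motif of the kind PU.1 binds, on either strand. Prtn3 and Elane are direct neighbours on chromosome 10, and so are Lyz1 and Lyz2.
Prtn3, chr10:79879417-79879666, plus strand: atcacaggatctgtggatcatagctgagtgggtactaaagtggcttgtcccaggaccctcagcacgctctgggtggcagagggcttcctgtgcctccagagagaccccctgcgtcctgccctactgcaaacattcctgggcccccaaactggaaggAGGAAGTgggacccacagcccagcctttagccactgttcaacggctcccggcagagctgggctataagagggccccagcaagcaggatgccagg
Elane, chr10:79886062-79886311, plus strand: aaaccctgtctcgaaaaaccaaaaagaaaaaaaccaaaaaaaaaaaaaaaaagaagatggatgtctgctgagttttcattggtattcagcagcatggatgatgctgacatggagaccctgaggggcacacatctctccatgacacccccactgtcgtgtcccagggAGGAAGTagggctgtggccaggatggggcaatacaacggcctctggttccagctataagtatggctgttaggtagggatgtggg
Lyz1, chr10:117292869-117293118, minus strand: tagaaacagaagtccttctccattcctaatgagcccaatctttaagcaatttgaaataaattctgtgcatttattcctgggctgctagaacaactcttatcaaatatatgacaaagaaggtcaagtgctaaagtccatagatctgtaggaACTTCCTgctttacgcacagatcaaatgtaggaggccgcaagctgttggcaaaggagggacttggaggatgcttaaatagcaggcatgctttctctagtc
Lyz2, chr10:117282273-117282522, minus strand: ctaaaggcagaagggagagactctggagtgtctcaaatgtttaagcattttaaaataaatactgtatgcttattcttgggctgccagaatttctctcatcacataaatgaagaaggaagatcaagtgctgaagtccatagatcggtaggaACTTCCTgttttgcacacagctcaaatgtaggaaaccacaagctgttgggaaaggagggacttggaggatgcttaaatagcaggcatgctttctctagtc

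The C/EBP-type motif TTGCNNAA was present in all 3 secondary granule promoters, with 2 matches in Ngp, and also once in Lyz1, at a place not capitalised here. It was found in 9.56% of the 32851 promoter windows of that length in the table. The ETS-type motif AGGAAGT was present in 6 of the 9 promoters, those of Mpo, Elane, Prtn3, Ctsg, Lyz1 and Lyz2, and in 7.69% of all windows. A STAT-type motif, TTCNNNGAA, was found only in Ctsg among the 9, and in 7.02% of all windows. Matches of different motifs did not overlap in these promoters. The Lyz1 and Lyz2 windows were identical at 200 of 252 aligned columns (79.4%). The motifs were chosen with these sequences in view, and a match describes letters and not a bound site.

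**Figure D1:**
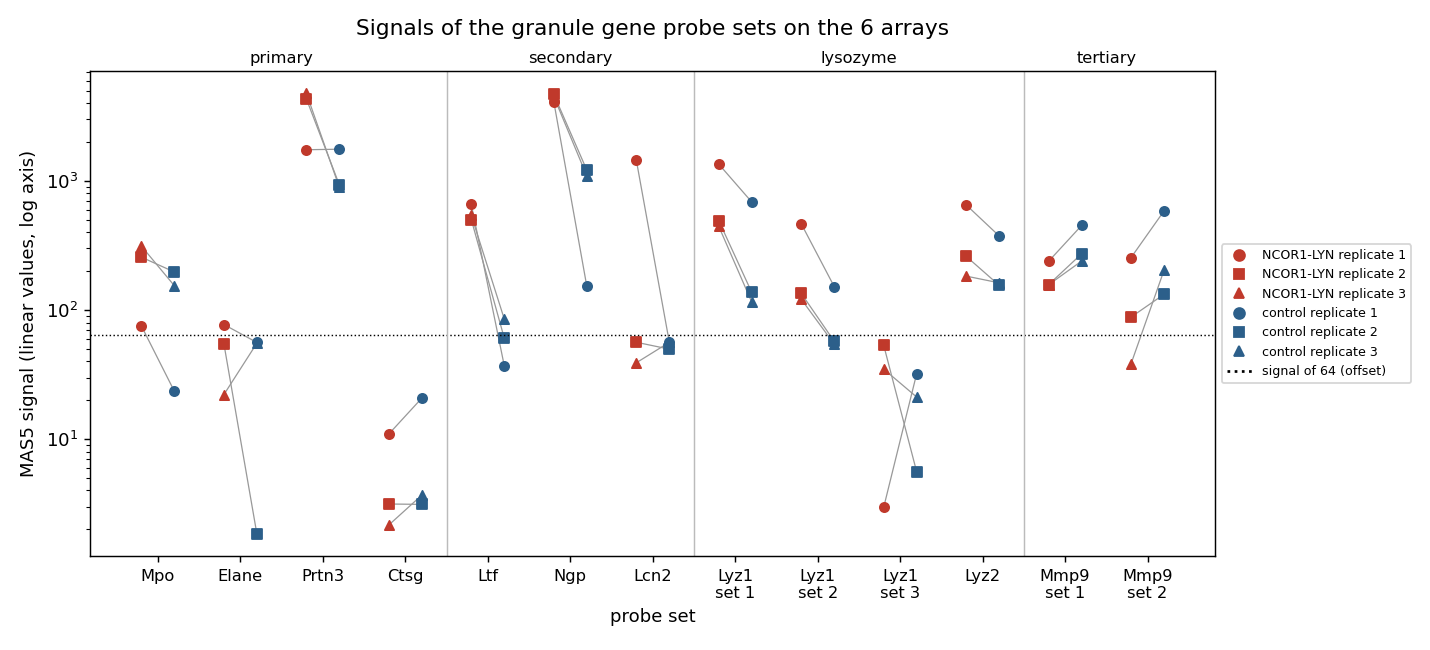
MAS5 signal (log axis) of the 13 probe sets of the granule genes on each array, NCOR1-LYN (red) to the left of control (blue), with lines joining arrays of the same number. All 3 NCOR1-LYN arrays lie above all 3 control arrays for Ltf and Ngp and below them for the first Mmp9 probe set, and Lcn2 is high on 1 array.

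Among the primary granule genes, Prtn3 stood higher with NCOR1-LYN in 2 of 3 pairs and Mpo in all 3, though neither passed with or without the block. Elane and Ctsg were too dim to test. Prtn3 encodes proteinase 3, a serine protease. Its signals were 1746, 4326 and 4782 in NCOR1-LYN replicates 1, 2 and 3, against 1763, 932 and 891 in the controls of the same numbers. The replicate 1 arrays thus had nearly equal signals, and the other pairs were apart by 2.14 and 2.34 on the log2(signal + 64) scale, on which all changes below are given. The log2 fold change was 1.49 ± 0.41 (SE), which did not pass in limma (adjusted p = 0.61, or 0.226 with the block). Without both arrays numbered 1 it was 2.24 (limma adjusted p = 3.47e-07), from 2 arrays per group.

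Mpo encodes myeloperoxidase, which makes hypochlorous acid. It had 75.2, 257 and 313 in NCOR1-LYN replicates 1 to 3, against 23.4, 197 and 154 in controls. The replicate 1 array was the lowest of its group on both sides, the groups overlapped, and all 3 pairs pointed upward, by 0.67, 0.30 and 0.79. Its log2 fold change was 0.59 (95% interval −0.59 to 1.77, limma adjusted p = 0.999, or 0.205 with the block).

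Elane encodes neutrophil elastase. Its signals were 77.2, 54.7 and 22.1 with NCOR1-LYN, against 56.1, 1.84 and 55.4 in controls, so its groups overlapped and its pairs went both ways. Ctsg, which encodes the protease cathepsin G, had 11, 3.14 and 2.16 with NCOR1-LYN and 20.8, 3.12 and 3.68 in controls, below 64 on every array. Both lay under the filter on dim genes, a mean signal of about 47, and were not tested with the others. Elane is the direct neighbour of Prtn3, and the pairs in which Prtn3 was higher, 2 and 3, had Elane changes of 0.85 and −0.47.

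**Figure D2:**
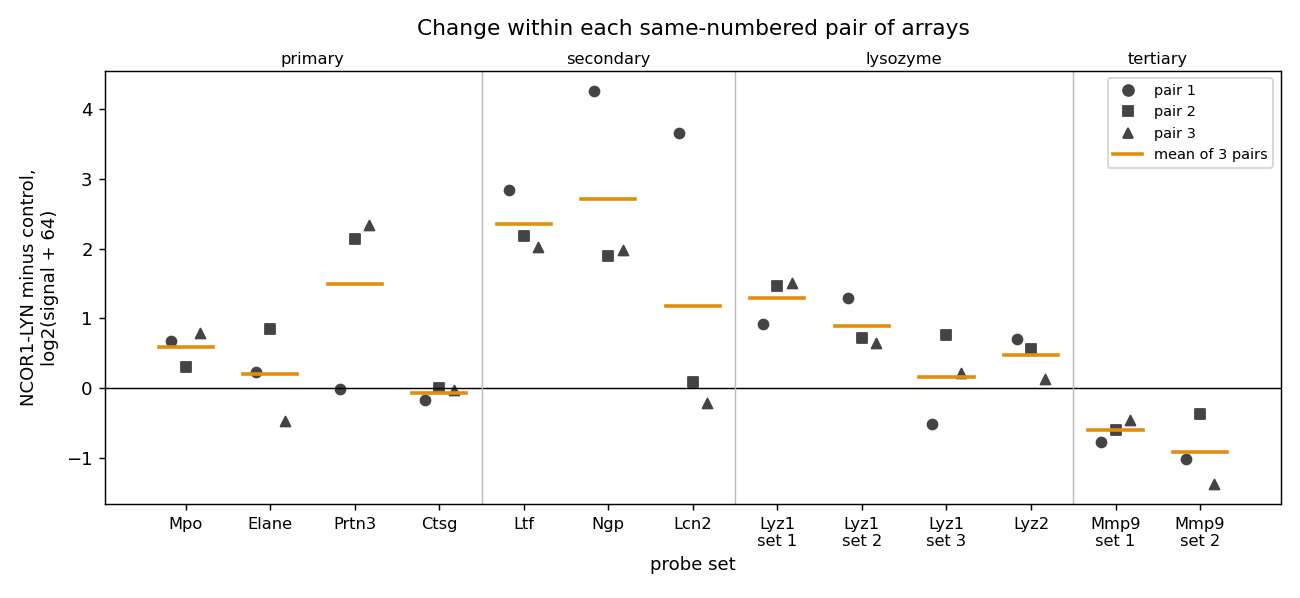
NCOR1-LYN minus control within each pair of same-numbered arrays, on the log2(signal + 64) scale, for each probe set, with the mean of the 3 pairs as a bar. Ltf and Ngp are above 0 in every pair, Prtn3 only in pairs 2 and 3, Lcn2 is far above 0 only in pair 1, and both Mmp9 probe sets are below 0 in every pair.

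Ltf, the secondary granule gene of the iron-binding protein lactoferrin, rose with NCOR1-LYN, and it was the only one of the 10 genes to pass the test without a block. Its signals were 657, 502 and 541 in NCOR1-LYN replicates 1 to 3, against 36.9, 60.4 and 85.1 in controls. All NCOR1-LYN arrays lay far above all controls. The log2 fold change was 2.35 ± 0.19 (SE, limma adjusted p = 0.0175), with pair changes of 2.84, 2.19 and 2.02, and it passed with the block as well (adjusted p = 0.00613). In bulk RNA, more cells with the transcript and more transcript per cell cannot be told apart.

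The call for Ltf depended on which array was left out, while its size changed little. Leaving out 1 array at a time gave log2 fold changes from 2.20 to 2.49, and limma adjusted p from 0.0229 to 0.204. The call was lost without NCOR1-LYN 2 (adjusted p = 0.103), NCOR1-LYN 3 (0.204), control 2 (0.123) or control 3 (0.0723). It was kept without NCOR1-LYN 1 (0.0436) or control 1 (0.0229).

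Ngp encodes neutrophilic granule protein, a secondary granule protein related to cystatins and cathelicidins. It had 4118, 4686 and 4513 in NCOR1-LYN replicates 1 to 3, against 153, 1216 and 1097 in controls. The NCOR1-LYN arrays were close to each other and all above the controls, while control 1 lay far below controls 2 and 3. Its change of 2.71 ± 0.62 (SE) did not pass without a block (limma adjusted p = 0.417). With the block it lay at the threshold, with an adjusted p of 0.0502 over genes in limma and of 0.0409 in the limma fit over all probe sets. Without control 1 the log2 fold change was 1.88 (limma adjusted p = 0.0105), so the call turned on that array. The other 2 pairs had changes of 1.89 and 1.98, and pair 1 had 4.27.

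Lcn2, which encodes the iron-siderophore binding protein lipocalin 2, was high on a single array. Its signals were 1457, 56.3 and 39 in NCOR1-LYN replicates 1 to 3, against 56.8, 49.8 and 56.2 in controls. Apart from NCOR1-LYN 1 the arrays did not separate the groups, and pairs 2 and 3 changed by 0.08 and −0.22. Its change of 1.17 ± 0.94 (SE, limma adjusted p = 0.999) turned to −0.09 without NCOR1-LYN 1. Control 1, which shares its number, did not have a high Lcn2 signal.

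Lyz1 stood higher with NCOR1-LYN in every pair, on top of a higher level in both arrays numbered 1. Lyz1 and Lyz2 encode the P and M forms of lysozyme, which cleaves bacterial cell walls. The main Lyz1 probe set had 1351, 493 and 446 in NCOR1-LYN replicates 1 to 3, against 688, 137 and 115 in controls. Control 1 exceeded NCOR1-LYN 2 and 3, so the groups overlapped. Within pairs the changes were 0.91, 1.47 and 1.51. The log2 fold change of 1.30, the same in both fits, did not pass in limma without a block (SE 0.61, adjusted p = 0.999). It passed with the block, where its SE was smaller (SE 0.15, adjusted p = 0.0221). Leaving out 1 array at a time moved the unblocked value from 0.83, without NCOR1-LYN 1, to 1.96, without control 1, and neither passed.

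A second Lyz1 probe set had 467, 135 and 121 with NCOR1-LYN, against 152, 57.3 and 54.5 in controls, with the same order of arrays. Its log2 fold change was 0.88, which did not pass over all probe sets in limma (adjusted p = 0.9995, or 0.0871 with the block). The dimmest Lyz1 probe set had 2.96, 53.5 and 34.9 with NCOR1-LYN and 32.1, 5.59 and 21.2 in controls, below 64 throughout and not tested. The first and second are of the type whose probes can also match related transcripts, so Lyz1 and Lyz2, near-identical genes, may share signal.

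Lyz2 had 653, 261 and 183 in NCOR1-LYN replicates 1 to 3, against 375, 155 and 162 in controls. As for Lyz1, the arrays numbered 1 were the highest of their groups, and the pair changes of 0.71, 0.57 and 0.13 were all positive. Its fold change was 0.47 on the log2 scale (95% interval −0.55 to 1.49, limma adjusted p = 0.999, or 0.316 with the block). Whether Lyz1 and Lyz2 changed by different amounts was not tested.

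Mmp9, the tertiary granule gene of gelatinase B, a matrix metalloprotease, was the gene of the 8 tested that stood lower with NCOR1-LYN. Its main probe set had 239, 157 and 157 in NCOR1-LYN replicates 1 to 3, against 452, 273 and 239 in controls. The groups were apart by a narrow margin, with NCOR1-LYN 1 just under control 3. Its log2 fold change was −0.61 ± 0.24 (SE, limma adjusted p = 0.979, or 0.124 with the block). A second probe set had 255, 88.2 and 38.4 with NCOR1-LYN, against 586, 132 and 204 in controls, which overlapped. It was lower in all 3 pairs, and its log2 fold change was −0.93 ± 0.53 (SE, limma adjusted p = 0.9995 over probe sets, or 0.124 with the block). In both probe sets the arrays numbered 1 were the highest of their group.

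**Figure D3:**
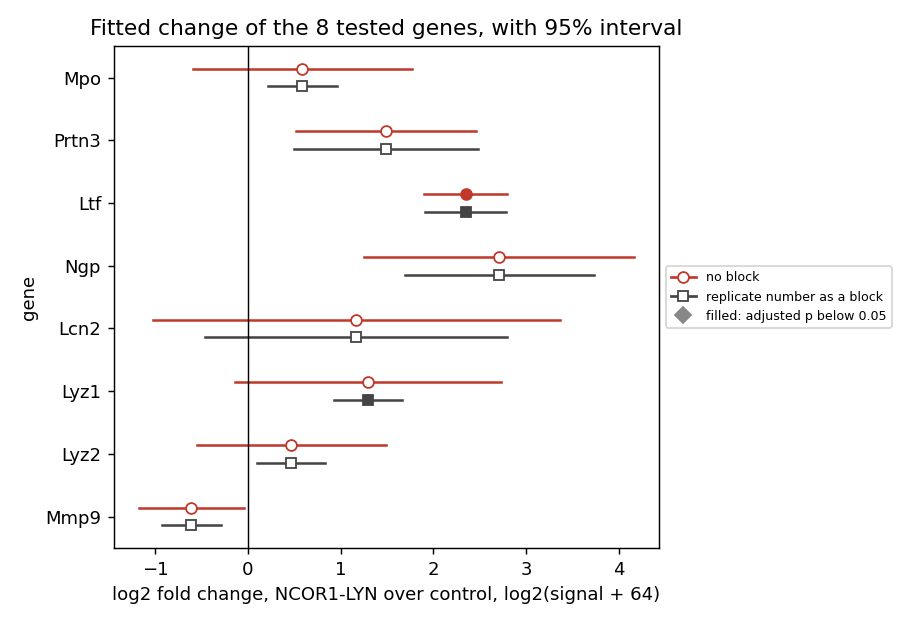
Fitted log2 fold change of the 8 tested genes with its 95% interval, without a block (red circles) and with the replicate number as a block (dark squares), filled where the adjusted p over all genes was below 0.05. Ltf is filled in both fits and Lyz1 only with the block, while the interval of Lcn2 spans 0 in both.

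Among all genes tested, 9 of 10916 genes passed without a block (0.0824%), 6 of them higher (0.055%) and 3 lower (0.0275%) with NCOR1-LYN. With the block 90 passed (0.824%), 29 higher (0.266%) and 61 lower (0.559%). Over all probe sets 0.0334% passed without and 0.725% with the block. Of the 10 granule genes, 1 passed without and 2 (Ltf and Lyz1) with the block, all higher, and 0 were lower in either fit. At an unadjusted p under 0.05 in the unblocked limma fit, 3 were higher (Prtn3, Ltf and Ngp, against 1.98% of all genes tested) and 1 lower (Mmp9, against 2.78%). Groups that did not overlap were found for 3 of the 10, against 11.2% of all genes tested. Those were Ltf and Ngp as higher (5.18% of all genes) and Mmp9 as lower (6.06%). All 3 pairs pointed the same way for 6 of the 10, against 34.7% of all genes tested. Those were Mpo, Ltf, Ngp, Lyz1 and Lyz2 as higher (15.9% of all genes) and Mmp9 as lower (18.9%). With Elane and Ctsg included, which were dim in both groups and not tested, the median log2 fold change of the 10 was 0.88, with 8 above and 2 below 0, and that of all genes tested was −0.01. Because the 10 were listed with earlier results of these data known, the shares are a description and not a test of the list.

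The arrays numbered 1 divided the genes by a second pattern, seen in both groups. Lyz1, Lyz2 and Mmp9 were highest in replicate 1 of each group, whereas Mpo and Ngp were lowest there, Ngp only slightly so with NCOR1-LYN. Ltf was highest in replicate 1 with NCOR1-LYN and lowest in replicate 1 of the controls. Prtn3 was lowest in NCOR1-LYN 1 and highest in control 1, which closed the gap between the groups in that pair. The labels do not say how the cultures numbered 1 differed.

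Among other genes of the granule pathway none passed the test as higher, without or with the block. Of 77 listed genes, 67 had a probe set and 47 were tested, and in limma 0 passed without a block (1 higher and 3 lower at an unadjusted p under 0.05, which 4.75% of all genes tested had in either direction). With the block 0 were higher and 2 lower, against 0.266% and 0.559% of all genes tested. The median log2 fold change over the 47 was −0.04. The 2 that fell with the block were Adam8, a metalloprotease stored in neutrophil granules, and Ceacam1, an adhesion receptor. Adam8 had 430, 316 and 272 with NCOR1-LYN, against 1455, 1048 and 941 in controls, with pair changes of −1.62, −1.55 and −1.58. Its log2 fold change was −1.58 (limma adjusted p = 0.0894 without and 0.00237 with the block). Ceacam1 had 757, 362 and 253 with NCOR1-LYN, against 1605, 773 and 755 in controls, and its log2 fold change was −1.12 (limma adjusted p = 0.91 without and 0.0192 with the block).

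Of the 24 other secondary and tertiary granule genes with a probe set, 9 were above 64 on all arrays, Itgb2 and Anxa1 among them. Several others were dim in both groups. Camp, the cathelicidin gene, stayed at 23 or lower on all arrays, and Cd177, a neutrophil surface protein, at 27.2 or lower. Olfm4, a secondary granule protein gene under the filter, had 59.5, 106 and 94.5 with NCOR1-LYN, against 19.5, 3.38 and 3.45 in controls. Its groups did not overlap, it was not tested, and it was chosen after its values were seen. Of the 9 tested other primary granule genes 0 passed in either limma fit, and Arsb, a lysosomal sulfatase, had the largest change, 0.49 ± 0.28 (SE).

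For genes that package and process granule proteins no change passed the test. Srgn encodes serglycin, the proteoglycan core on which granule proteases are stored. It had 22050, 20452 and 22529 with NCOR1-LYN, against 22295, 22516 and 21409 in controls, a log2 fold change of −0.03 (95% interval −0.27 to 0.22). Ctsc encodes cathepsin C, which activates the serine proteases of primary granules, and its log2 fold change was 0.37 (95% interval −0.30 to 1.04). Srgn and Ctsc were chosen after their values were seen. Of 17 tested genes of this list 0 passed in either limma fit, and the largest change was that of Stx11, a syntaxin of granule release, −0.73 ± 0.27 (SE).

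Among transcription factors of granule genes, 0 of 11 tested passed in either limma fit, and the median log2 fold change was 0.14. Rara, the retinoic acid receptor alpha gene, had the largest change, with 216, 188 and 213 with NCOR1-LYN, against 145, 72.4 and 128 in controls (log2 fold change 0.61 ± 0.19, SE, limma adjusted p = 0.718). Spi1, which encodes PU.1, had a log2 fold change of −0.02 (95% interval −0.59 to 0.56), and Cebpb, a C/EBP factor, of 0.25 (95% interval −0.20 to 0.70). Spi1 and Cebpb were picked out with their values in view. Cebpa and Gfi1 stayed below 64 on all arrays. Of the 17 listed factors 16 had a probe set among those kept. The factor without was Cebpe, a further C/EBP factor, so its level is not known here.

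**Figure D4:**
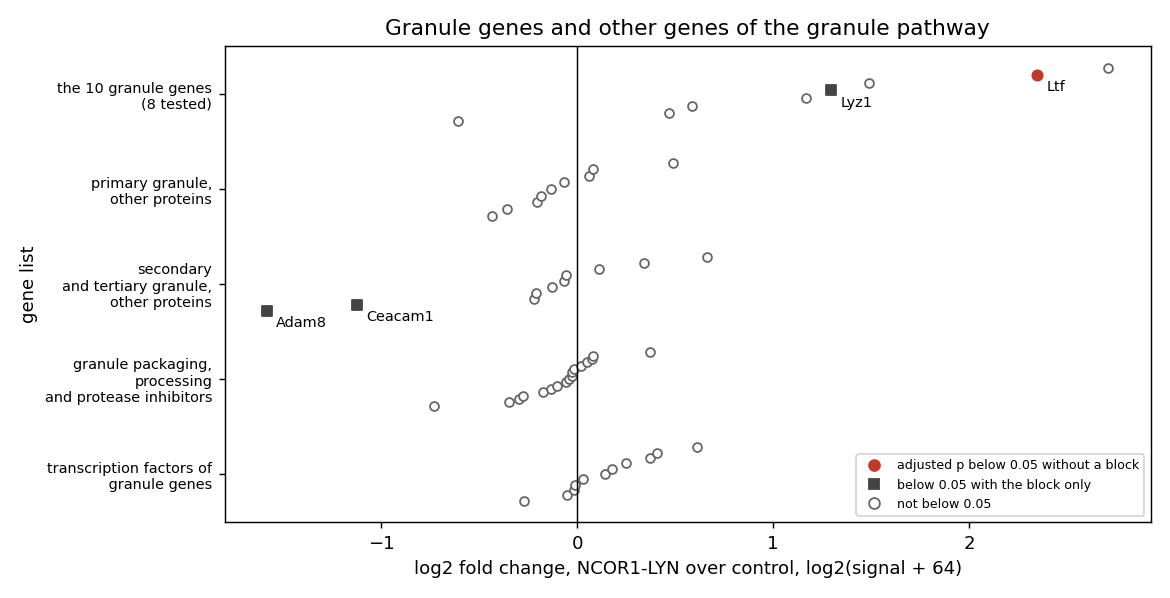
Log2 fold change, NCOR1-LYN over control, of each tested granule gene (top row) and of 4 lists of other granule pathway genes. The granule genes lie mostly to the right of 0, with Ltf past the test and Lyz1 past it with the block only. The other lists centre near 0, and their genes past the test with the block only, Adam8 and Ceacam1, lie to the left.

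Of genes of other cell types, 4 mature neutrophil, 3 eosinophil and basophil, 3 mast cell and 4 monocyte and macrophage genes were tested. In limma 0 of these passed without a block, against 0.0824% of all genes tested. At an unadjusted p under 0.05, 2 were higher and 3 lower, against 1.98% and 2.78% of all genes tested. With the block 3 passed, against 0.824% of all genes tested. The summed signal of 6 eosinophil and basophil genes was 4181 to 5425 with NCOR1-LYN, against 742, 3175 and 3472 in controls 1, 2 and 3. Most of it on every array came from Prg2, picked out with its values in view. Prg2 had 3584, 3245 and 3054 with NCOR1-LYN, against 585, 2379 and 2500 in controls. Of the 3 tested, 1 gene, Epx (eosinophil peroxidase), was higher with the block. The sum over 10 mast cell genes was 1929 to 4645 with NCOR1-LYN, against 814 to 1906 in controls, with 1 of 3 tested, Cma1 (mast cell chymase), lower with the block. Fcer1a, the IgE receptor gene, picked out with its values in view, made up most of that sum on all NCOR1-LYN arrays, with 1596, 4386 and 3721 there and 975, 388 and 341 in controls. The sum over 10 monocyte and macrophage genes was 883 to 2269 with NCOR1-LYN and 2376 to 2530 in controls, with 0 of 4 passing in either limma fit and Ccr2, a chemokine receptor gene, having the largest change (−1.12). Over 8 mature neutrophil genes it was 693 to 1976 with NCOR1-LYN and 1672 to 2146 in controls. Of these, 4 were tested and Cxcr2, a chemokine receptor gene, fell with the block (log2 fold change −2.05). Csf3r, the receptor of the granulocyte growth factor, stayed at 41.8 or lower on all arrays. Clec4e and Mxd1, picked out with their values in view, were above 64 on all arrays. Clec4e had the highest signal of this list on every array. Their log2 fold changes were −0.56 and −0.04, and neither passed in either limma fit. For B lymphoid genes, 11 with a probe set, the sums were 717 to 751 with NCOR1-LYN and 700 to 925 in controls, and Pax5, a B lineage transcription factor, had the largest change of the 3 tested (−0.16, limma adjusted p = 0.999). Of the eosinophil and basophil genes, 3 of 6 stayed below 64 on all arrays (Ccr3, Il5ra and Mcpt8), of the mast cell genes 6 of 10, Kit and Tpsab1 among them, and of the monocyte and macrophage genes 5 of 10, Cd14 and Mpeg1 among them. The mast cell gene Ms4a2 and the macrophage genes Csf1r and Adgre1 were above 64 on all arrays. The part of such lineage genes in the changes of the granule genes was not tested.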

How the data were processed

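RNA of 3 NCOR1-LYN and 3 control cultures was measured on 1 array each. The table the authors deposited holds linear intensities, 1 per probe set and array, made with MAS5 per the submitters' processing notes (version not given in the sources used here), and the values show a mean of 500 on every array after trimming 2% at each end. Groups and replicate numbers came from the labels. Of 45101 probe sets, 34945 with exactly 1 gene symbol in the platform annotation were kept (932 had several, 9160 none and 64 were controls). Signals were used as log2(signal + 64), which understates the change of dim genes. Where a gene had several probe sets, the one of highest mean stood for it. The dimmest 40% of genes were dropped, leaving 10916 (20967 in the fit over probe sets, filtered likewise). Both were fitted with limma 3.58.1 (R 4.3.3, lmFit and eBayes with an intensity trend) and adjusted by Benjamini-Hochberg, two-sided, at 0.05. Residual degrees of freedom were 4, or 2 with the replicate block. The fit was tested on simulated data.

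The block rested on the correlation of deviations of same-numbered arrays, which exceeded 0.1 in every pair. Unmatched arrays of numbers 2 and 3 exceeded 0.1 as well, since the offset of the arrays numbered 1 enters every r. Pairing of numbers 2 and 3 was thus not shown. The labels name no shared batch, and numbers 2 and 3 were not told apart (NCOR1-LYN 2 with control 3, r = 0.48). The members and gene lists were chosen with earlier results of these data known. Named genes were all members and, from each further list, those past the threshold in either fit (at most 4) or else the one with the largest change, plus the 3 genes most correlated with Ltf and with 1 member per granule type. Any further gene named was chosen after its values were seen. The number of arrays limits the precision. Alternatives covered the offset, the filter, the block, the mean over probe sets, quantile normalization, array weights and left-out arrays. Array values carry no genome build, and coordinates are those of the RefSeq promoters.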

Additional observations from a re-analysis of the deposited data

How the results depend on the processing

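Of 115 fold changes of single granule genes under the alternatives, 99 kept their direction and side of the threshold, 5 lost a call (all Ltf), 9 gained one and 2 turned. Those that turned were Lcn2 without both arrays numbered 1 (−0.0712) and without NCOR1-LYN 1 (−0.0866). With 1 array left out, Lcn2 ran from −0.0866 to 1.86. Without a filter Ltf had an adjusted p of 0.0688 in limma, and with the filter at the 60th percentile Ltf was not among the 3 granule genes tested.

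The count of granule genes past the threshold in limma, 1 with all settings as given, was 0 with no filter (4 at an unadjusted p under 0.05) and 0 with the filter at the 60th percentile (2 unadjusted). It was 2 with the replicate block, 5 with array weights (Prtn3, Ltf, Ngp, Lyz1 and Mmp9) and 4 without both arrays numbered 1 (Prtn3, Ltf, Ngp and Lyz1). Leaving out 1 array gave 0 to 2, with 3 to 4 at an unadjusted p under 0.05 where the count was 0. The 2 were Ltf and Ngp, without control 1. For other granule pathway genes the count of 0 became 2 with the block, 1 with quantile normalization, 5 with array weights and 10 without both arrays numbered 1. It was 0 in limma for every single array left out (2 to 7 unadjusted). The 5 with array weights were Adam8, Arsb, Ceacam1, Rara and Stat3. Of the 10 without both arrays numbered 1, Anxa1, Arsb, Cst7, Myb, Pglyrp1 and Stat3 were higher with NCOR1-LYN in pairs 2 and 3. The rest, Adam8, Ceacam1, Man2b1 and Serpinb1a, were lower in both of those pairs.

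Over all genes the count of 9 became 1 with no filter, 1 with the 60th percentile, 90 with the block, 502 with array weights and 744 without both arrays numbered 1. With 1 array left out it ran from 0 to 15, and fits with 0 in limma had 345 to 408 at an unadjusted p under 0.05. Over probe sets the count of 7 became 1, 3, 152, 524 and 926 in the same order, 4 with quantile normalization and 0 to 12 with 1 array left out (676 to 705 unadjusted where it was 0). The cause of these differences was not tested. The fit without both arrays numbered 1 has 2 arrays per group, which correlated at 0.993 with NCOR1-LYN and 0.994 in controls. Quantile normalization kept the median change of all genes at −0.01.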

Other observations

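The genes whose log2 values followed a granule gene most closely over the 6 arrays are given as a description, since 6 arrays share 2 groups and the offset of replicate 1. Ltf was followed by Aldh1a7, an aldehyde dehydrogenase gene (Pearson's r = 0.985), Cnn2, which encodes a calponin (0.981), and Cluap1, a cilium gene (0.981). Aldh1a7 had 295, 182 and 231 in NCOR1-LYN replicates 1 to 3, against 12.5, 45.8 and 31 in controls, groups that did not overlap. Prtn3 was followed by Tctex1d2, a dynein light chain gene (0.996), Smad1, a factor of BMP signalling (0.988), and Phlda1, a growth factor-induced gene (0.988). Phlda1 had 2524, 6469 and 6235 with NCOR1-LYN and 2518, 1820 and 1731 in controls, with the same near-equal replicate 1 pair as Prtn3. Ngp was followed by the mitochondrial ribosomal protein genes Mrpl52 (0.993) and Mrpl37 (0.993) and by Zdhhc15 (0.990), which encodes a palmitoyltransferase. Mrpl37 had 874, 884 and 885 with NCOR1-LYN, against 757, 825 and 809 in controls, a far smaller difference than that of Ngp. Lyz1 was followed by Uri1 (0.997), Ffar2, a receptor for short-chain fatty acids (0.997), and Abcg1, a cholesterol transporter gene (0.995). Ffar2 had 3738, 2696 and 2435 with NCOR1-LYN and 2973, 1625 and 1543 in controls, also highest in replicate 1 of both groups. Mmp9 was followed by Plec (0.997), which encodes the cytoskeletal linker plectin, Wdr5 (0.996) and Azin1 (0.994).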
